A study of Homo sapiens with 12 samples.

Results

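The subject here is a set of 10 human genes of the NRF2 pathway, namely NFE2L2, KEAP1, NQO1, HMOX1, GCLC, GCLM, TXNRD1, SRXN1, PRDX1 and TXN. They were chosen by gene symbol, with earlier results of these data known. Each of the 10 had a row in the count table of both cell lines. The count tables hold 16820 genes for MOLM-13 and 17099 for OCI-AML2 (18304 in either table and 15615 in both). NRF2, the product of NFE2L2, is a transcription factor that switches on genes for glutathione synthesis, thioredoxin recycling, quinone reduction and haem breakdown. In unstressed cells KEAP1 binds NRF2 and presents it to a CUL3 ubiquitin ligase for destruction. Oxidants and electrophiles modify KEAP1 and let NRF2 accumulate, and in acute myeloid leukaemia NRF2 activity has been linked to survival under chemotherapy. The pathway is controlled largely at the protein level, which RNA sequencing does not measure.

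The study sequenced polyadenylated RNA, without strand information, from MOLM-13 and OCI-AML2, established human cell lines derived from acute myeloid leukaemia. The 4 groups were MOLM-13 with 75 nM selinexor, MOLM-13 with vehicle (DMSO), OCI-AML2 with 200 nM selinexor and OCI-AML2 with vehicle, each for 36 h. Selinexor is a small molecule that blocks XPO1, the receptor that exports many proteins from the nucleus. Each group had 3 libraries, which the submitters describe as biologically independent. The lines received different doses, so line and dose cannot be told apart. Each is a single cell line, and neither stands for leukaemia cells in general.

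Library totals lay between 8114892 and 11769061 counts, so that a floor of 3 counts lay at 0.249 to 0.375 CPM. CPM are counts divided by the TMM-scaled library size, and the floor covers counting error only. XPO1, whose transcript is known to rise when its protein is inhibited, averaged 601 ± 23.9 CPM with selinexor and 380.0 ± 13.4 CPM with vehicle in MOLM-13 (SD, n = 3 each). In OCI-AML2 it averaged 683 ± 8.76 CPM with selinexor and 443 ± 22.5 CPM with vehicle (SD, n = 3 each). All 8 myeloid lineage markers were in both tables, and their summed level was 1787 to 1852 CPM with selinexor against 759 to 791 CPM with vehicle in MOLM-13. In OCI-AML2 the same sum was 10533 to 10800.1 CPM with selinexor against 2467 to 2672 CPM with vehicle. Most of that difference was LYZ, the lysozyme gene of granulocytes and monocytes, at 958 against 116 CPM in MOLM-13 and 9580 against 1735 CPM in OCI-AML2. SPI1, the myeloid transcription factor PU.1, was at 241 against 186 CPM and at 428 against 359 CPM with selinexor and vehicle in the same lines. FLT3, a receptor of blood progenitors, changed by 0.39 ± 0.036 (log2, SE) in MOLM-13 and by 1.05 ± 0.048 in OCI-AML2. Of all tested genes, 31.8% rose and 31.8% fell in MOLM-13, and 31.3% rose and 31.8% fell in OCI-AML2. Of 7 myeloid markers tested, 5 rose and 0 fell in MOLM-13, with PTPRC and CSF1R not called. In OCI-AML2, 4 rose and 1 fell, with CD33 and CSF1R not called. The marker that fell was MPO, myeloperoxidase, at 8.03 against 11.6 CPM in OCI-AML2. These markers moved in the same libraries as the pathway genes, and their part in the results below was not tested. The 2 erythroid markers analysed, ALAS2 and SLC4A1, summed to at most 0.486 CPM in any library of either line. The lymphoid markers summed to 14.4 to 15.8 against 12.6 to 15.6 CPM in MOLM-13 and to 15.9 to 19.6 against 11.3 to 13.02 CPM in OCI-AML2, mostly from NKG7. The epithelial and fibroblast markers summed to 9.69 to 16.1 against 4.25 to 4.92 CPM in MOLM-13, mostly KRT18, and stayed at or under 1.49 CPM in OCI-AML2. In such bulk samples, fewer cells of a type and less RNA per cell cannot be told apart.

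With selinexor, the transcripts of 3 NRF2 target genes, NQO1, GCLM and TXNRD1, fell in both lines, while that of NRF2 itself did not pass the test in either. GCLC fell in OCI-AML2, KEAP1 and PRDX1 fell in MOLM-13, and TXN fell in MOLM-13 and rose slightly in OCI-AML2. A gene is called here when edgeR's quasi-likelihood test gives a Benjamini-Hochberg adjusted p under 0.05 over all genes tested in that line. In MOLM-13, 6 of the 9 tested members fell, 0 rose and 3 did not pass, whereas 63.6% of all 11807 tested genes were called, 31.8% lower and 31.8% higher. In OCI-AML2, 4 of the 9 fell, 1 rose and 4 did not pass, with 63.1% of all 12086 tested genes called, 31.8% lower and 31.3% higher. Under upper quartile scaling 57.8% of the called genes were higher in MOLM-13 and 56.0% in OCI-AML2, in place of 49.97% and 49.6%. The member shares of 66.7% and 55.6% called therefore lie near these backgrounds, and the direction and size of single members carry the description. HMOX1 had too few counts to be tested in either line. The median log2 fold change of the 9 tested members was -0.27 in MOLM-13 and -0.16 in OCI-AML2, against 0.01 and -0.002 over all tested genes. The OCI-AML2 median is the value of SRXN1 (-0.16 ± 0.48, SE), a scarce transcript whose direction is not determined. With limma voom that median was -0.10. NQO1, GCLM and TXNRD1 were called lower in both lines, as were 23.6% of the 11202 genes tested in both. TXN was called in opposite directions, as were 2.86% of those genes, and 0 members were called higher in both, where 21.0% of genes were.

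**Figure D1:**
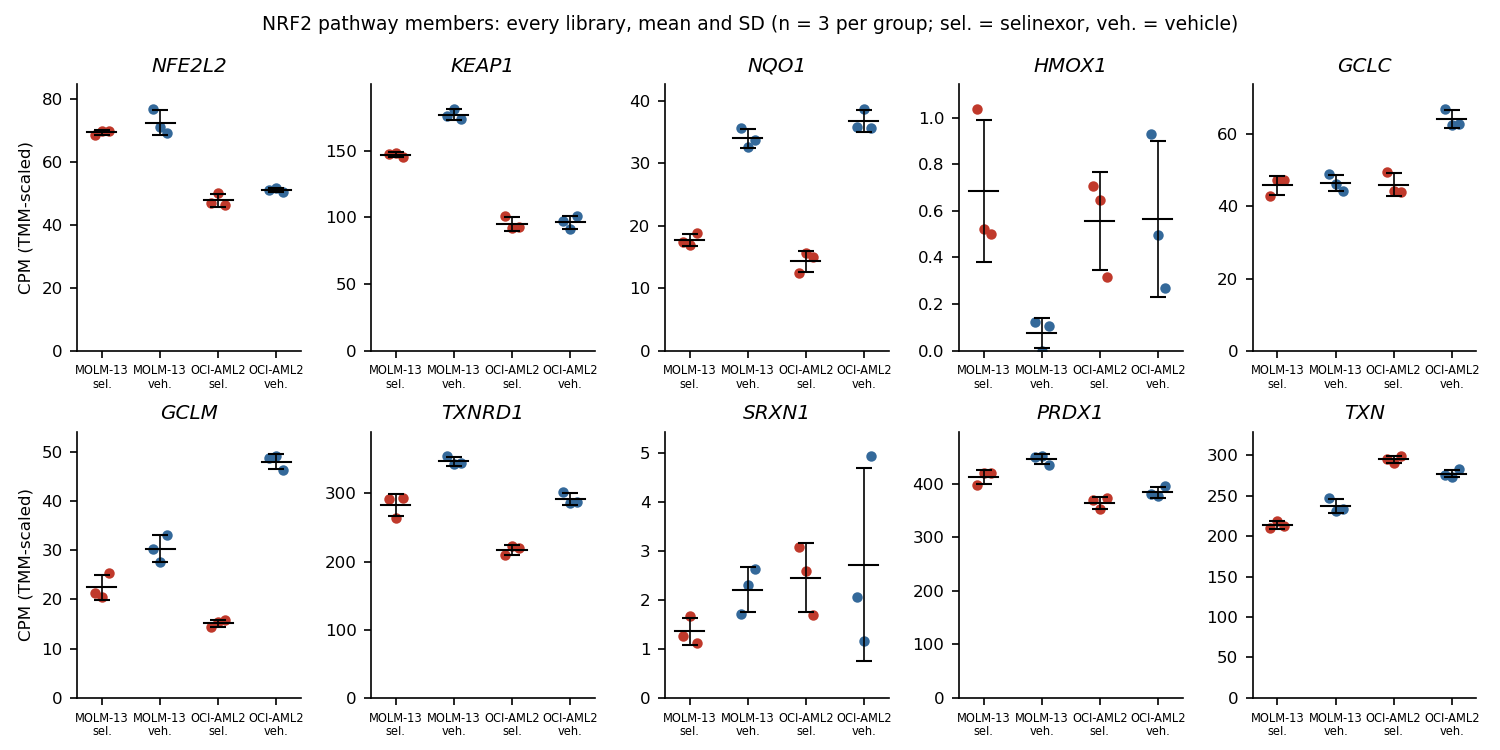
CPM (TMM-scaled within a line) of the 10 members in every library, selinexor in red and vehicle in blue, with the mean and SD of 3 libraries per group and each axis starting at 0. NQO1 and GCLM with selinexor lie below every vehicle library of the same line, and the NFE2L2 libraries of MOLM-13 overlap.

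NFE2L2 and KEAP1 set the amount of NRF2 protein. NFE2L2 (chromosome 2, 177227595 to 177392697, minus strand, GENCODE 29 on GRCh38, as all positions of genes here) had 68.6, 70.0 and 70.1 CPM with selinexor in MOLM-13, against 77.1, 71.3 and 69.4 CPM with vehicle. These groups overlapped, and the log2 fold change (selinexor over vehicle) was -0.06 ± 0.063 (SE, adjusted p = 0.416). In OCI-AML2 it had 47.0, 50.3 and 46.4 CPM with selinexor, against 51.3, 51.9 and 50.6 CPM with vehicle. The 3 selinexor libraries lay below the vehicle libraries by little, and the change of -0.10 ± 0.069 was not called (adjusted p = 0.208). NFE2L2 shares 1054 exonic bases with AC019080.1 on its own strand and 244 with genes on the opposite strand, AGPS among them, and reads there cannot be assigned to a gene by strand.

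KEAP1 (chromosome 19, 10486120 to 10503741, minus strand), the adaptor that hands NRF2 to the ligase, was lower in MOLM-13. It had 147, 149 and 145 CPM with selinexor, against 176, 182 and 174 CPM with vehicle. The groups were well apart, and the log2 fold change was -0.27 ± 0.045 (adjusted p = 1.6e-07). In OCI-AML2 KEAP1 had 101, 91.8 and 92.5 CPM with selinexor, against 97.0, 91.1 and 101 CPM with vehicle. There the groups overlapped throughout (-0.02 ± 0.057, adjusted p = 0.778).

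NRF2 binds DNA with a small MAF protein at the antioxidant response element, whose core is TGACNNNGC. Promoter windows from RefSeq (GRCh38.p14), running from 250 bases before to 50 bases after an annotated start site, were available for 8 of the 10 genes, in 11 windows; HMOX1 and PRDX1 were not among them. The core occurred on either strand in 4 windows of 3 members, KEAP1, GCLM and TXNRD1, while 13.3% of all 35116 RefSeq windows hold it. Windows of the 3 genes called lower in both lines are shown up to 10 bases past the start site, 5′ to 3′ on the gene's strand, in lower case with each match in capitals (a match on the other strand reads as the reverse complement of the core).
GCLM, chr1:93909421-93909680, minus strand: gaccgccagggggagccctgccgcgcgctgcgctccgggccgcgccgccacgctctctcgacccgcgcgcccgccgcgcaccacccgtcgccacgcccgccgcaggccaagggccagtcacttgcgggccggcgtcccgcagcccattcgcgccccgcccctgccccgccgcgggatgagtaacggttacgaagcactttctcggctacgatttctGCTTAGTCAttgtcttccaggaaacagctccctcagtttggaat
TXNRD1, first window, chr12:104215529-104215788, plus strand: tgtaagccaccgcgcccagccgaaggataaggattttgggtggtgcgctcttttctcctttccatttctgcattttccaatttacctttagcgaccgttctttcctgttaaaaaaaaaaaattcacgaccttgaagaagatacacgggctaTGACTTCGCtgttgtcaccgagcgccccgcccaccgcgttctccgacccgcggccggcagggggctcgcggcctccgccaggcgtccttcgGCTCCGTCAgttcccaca
TXNRD1, second window, chr12:104286782-104287041, plus strand: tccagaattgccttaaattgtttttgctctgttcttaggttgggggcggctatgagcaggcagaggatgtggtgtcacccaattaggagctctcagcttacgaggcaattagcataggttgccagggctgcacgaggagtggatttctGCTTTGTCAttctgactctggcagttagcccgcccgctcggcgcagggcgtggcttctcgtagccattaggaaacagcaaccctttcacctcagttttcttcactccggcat
NQO1, chr16:69726551-69726810, minus strand: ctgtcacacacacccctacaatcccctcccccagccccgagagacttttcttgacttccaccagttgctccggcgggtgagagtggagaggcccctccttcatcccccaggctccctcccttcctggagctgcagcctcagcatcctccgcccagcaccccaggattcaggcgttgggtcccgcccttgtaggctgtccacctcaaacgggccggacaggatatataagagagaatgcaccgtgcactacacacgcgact
In GCLM the match starts at position -34 from the start site and reads TGACTAAGC on the other strand. KEAP1, not printed, has matches at positions -54 and -31, the second of which also reads TGACTAAGC on the other strand. The first TXNRD1 window holds matches at -99 and -8 and the second holds 1 at -102. The NQO1 window holds no match, which says only that these letters are not within it. TGACTCA, the AP-1 site, was in no window of a member and in 4.95% of all windows. A match is a run of letters and was not measured as a binding site.

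NQO1 (chromosome 16, 69706996 to 69726951, minus strand) encodes an enzyme that reduces quinones with NADPH or NADH. It had 17.4, 16.9 and 18.9 CPM with selinexor in MOLM-13, against 35.6, 32.6 and 33.7 CPM with vehicle. Every selinexor library was far below every vehicle library, with a mean at 52.2% of the vehicle mean and a log2 fold change of -0.94 ± 0.099 (adjusted p = 1.2e-14). In OCI-AML2 it had 12.4, 15.6 and 14.9 CPM with selinexor, against 35.9, 38.7 and 35.6 CPM with vehicle. The groups were again well apart, at 39.0% of the vehicle mean and -1.36 ± 0.10 on the log2 scale (adjusted p = 1.2e-15). Ordered from the lowest log2 fold change, NQO1 was at place 482 of 11807 tested genes in MOLM-13 and at place 136 of 12086 in OCI-AML2. It shares 575 exonic bases with an antisense gene, AC092115.2, which has no row in the tables used here.

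HMOX1 (chromosome 22, 35380361 to 35394214, plus strand) encodes haem oxygenase 1, which breaks haem down to biliverdin, iron and carbon monoxide. In MOLM-13 it had 9, 5 and 4 counts with selinexor, against 1, 0 and 1 counts with vehicle. The groups did not overlap, but the vehicle counts lie at or under the floor of 3 counts. Summed over 3 libraries, 18 counts against 2 gave a ratio per library size of 9.22, with an exact 95% interval of 2.21 to 82.0 that covers counting error only. Without the filter on low counts, the edgeR test gave an adjusted p of 0.0109 in MOLM-13. In OCI-AML2 there were 6, 6 and 3 counts with selinexor, against 9, 6 and 3 with vehicle. Those groups overlapped (ratio 1.01, interval 0.472 to 2.11, counting error only), and these counts do not exclude ratios within that interval. The smallest change detectable at this depth was not computed.

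Glutamate-cysteine ligase makes the first and rate-limiting step of glutathione synthesis, with GCLC as its catalytic and GCLM as its modifier subunit. GCLM (chromosome 1, 93885205 to 93909456, minus strand) had 21.3, 20.5 and 25.4 CPM with selinexor in MOLM-13, against 30.3, 27.6 and 33.1 CPM with vehicle. These groups did not overlap, and the log2 fold change was -0.44 ± 0.099 (adjusted p = 5.7e-05), at place 1900 from the lowest of the 11807 genes. In OCI-AML2 GCLM had 14.4, 15.3 and 15.8 CPM with selinexor, against 48.6, 49.1 and 46.2 CPM with vehicle. There the groups were far apart: the selinexor mean was 31.6% of the vehicle mean, a log2 fold change of -1.66 ± 0.090 (adjusted p = 3.5e-20), at place 45 from the lowest of the 12086 genes.

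GCLC (chromosome 6, 53497341 to 53616970, minus strand) had 42.8, 47.2 and 47.4 CPM with selinexor in MOLM-13, against 48.9, 46.3 and 44.3 CPM with vehicle. The MOLM-13 groups overlapped (-0.02 ± 0.077, adjusted p = 0.842). In OCI-AML2 it had 49.7, 44.3 and 44.1 CPM with selinexor, against 67.1, 62.6 and 62.8 CPM with vehicle. It fell there, by 0.48 ± 0.069 on the log2 scale (adjusted p = 8.0e-08), with every selinexor library below the vehicle libraries. GCLC shares 529 exonic bases with AL033397.1 on its own strand.

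TXNRD1 (chromosome 12, 104215779 to 104350305, plus strand) encodes the cytosolic thioredoxin reductase, which uses NADPH to recycle thioredoxin. It had 291, 264 and 293 CPM with selinexor in MOLM-13, against 355, 343 and 344 CPM with vehicle. In OCI-AML2 it had 209, 223 and 219 CPM with selinexor, against 302, 286 and 287 CPM with vehicle. The groups did not overlap in either line, and the log2 fold changes were -0.30 ± 0.038 in MOLM-13 (adjusted p = 3.0e-11) and -0.43 ± 0.042 in OCI-AML2 (adjusted p = 5.5e-12).

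TXN (chromosome 9, 110243811 to 110256640, minus strand), thioredoxin itself, is the substrate of TXNRD1. In MOLM-13 it had 210.0, 219 and 213 CPM with selinexor, against 248, 231 and 233 CPM with vehicle, and it fell by 0.15 ± 0.041 on the log2 scale (adjusted p = 9.3e-04). In OCI-AML2 it had 295, 291 and 299 CPM with selinexor, against 276, 274 and 283 CPM with vehicle, a change of 0.09 ± 0.040 (adjusted p = 0.0475). The groups did not overlap in either line and lay in opposite order. The OCI-AML2 call was lost on leaving out any single library of that line (adjusted p 0.0544 to 0.128), with DESeq2 (0.0926) and with no filter (0.121), and the MOLM-13 call was lost with upper quartile scaling (-0.08, adjusted p = 0.0863). TXN has 7 annotated pseudogenes that could share its reads, so its level is uncertain.

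PRDX1 encodes an enzyme that reduces hydrogen peroxide, and SRXN1 encodes one that repairs over-oxidised peroxiredoxins. PRDX1 (chromosome 1, 45511036 to 45523047, minus strand) had 398, 420.4 and 420.4 CPM with selinexor in MOLM-13, against 449.9, 452 and 435 CPM with vehicle. The groups were apart by a narrow margin, and the log2 fold change was -0.11 ± 0.035 (adjusted p = 0.00412). That call was lost with upper quartile scaling (-0.04, adjusted p = 0.321) and without MOLM-13 selinexor library 1 (-0.09, adjusted p = 0.0528). In OCI-AML2 PRDX1 had 369, 352 and 373 CPM with selinexor, against 381, 376 and 395 CPM with vehicle. It was not called there (-0.07 ± 0.040, adjusted p = 0.0989), although the groups did not overlap. PRDX1 shares 379 exonic bases with MMACHC on the opposite strand and has 1 annotated pseudogene.

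SRXN1 (chromosome 20, 646615 to 653370, minus strand) was scarce. It had 1.27, 1.67 and 1.12 CPM with selinexor in MOLM-13, against 1.70, 2.30 and 2.62 CPM with vehicle. The groups did not overlap, and the change of -0.70 ± 0.36 did not pass the test (adjusted p = 0.0827). In OCI-AML2 it had 3.07, 2.59 and 1.68 CPM with selinexor, against 2.06, 1.16 and 4.93 CPM with vehicle, and the groups overlapped (-0.16 ± 0.48, adjusted p = 0.798). Vehicle library 3 held 55 counts, and without it the estimate was 0.62 (adjusted p = 0.155). The sign also turned without selinexor library 3 and with limma voom (0.065), so the direction is not determined. SRXN1 shares 2292 of its 2698 exonic bases with AL121758.1 on the same strand, so its counts are uncertain.

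**Figure D2:**
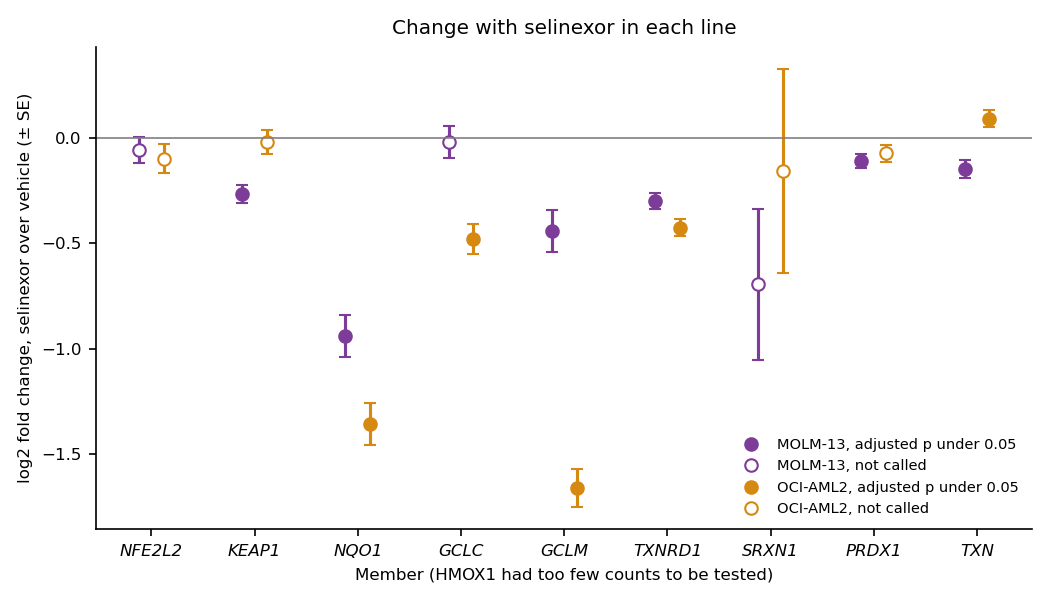
Log2 fold change (selinexor over vehicle) with its SE for the 9 tested members, MOLM-13 in purple and OCI-AML2 in orange; filled points passed edgeR's quasi-likelihood test at adjusted p under 0.05. GCLM lies at -0.44 in MOLM-13 and -1.66 in OCI-AML2, and the filled TXN points lie on opposite sides of 0.

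Of the 9 tested members, 7 in each line had selinexor libraries that did not overlap the vehicle libraries, against 65.5% of all tested genes in MOLM-13 and 66.3% in OCI-AML2. In MOLM-13 all 7 lay below the vehicle libraries. In OCI-AML2, 6 lay below and TXN lay above.

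The lines were compared by the interaction of line and treatment in a joint fit of the 12 libraries, given as the MOLM-13 change minus the OCI-AML2 change. Of the 9 members, 5 differed, beside 30.1% of the 12530 genes tested (11.1% above 0 and 19.0% below, median -0.04). GCLM differed most, by 1.17 ± 0.14 (log2, SE, adjusted p = 3.7e-11), its fall being smaller in MOLM-13. GCLC differed by 0.41 ± 0.10 (adjusted p = 0.00101), with overlapping groups in MOLM-13 and a called fall in OCI-AML2. NQO1 differed by 0.37 ± 0.14 (adjusted p = 0.0427), a call that was lost with DESeq2 (adjusted p = 0.0536) and with no filter on low counts (adjusted p = 0.0569). It was also lost without MOLM-13 selinexor library 1 or 3, MOLM-13 vehicle library 3 or OCI-AML2 selinexor library 1 (adjusted p 0.0577 to 0.172). KEAP1 differed in the other direction, by -0.30 ± 0.072 (adjusted p = 7.3e-04). The KEAP1 call was lost without MOLM-13 vehicle library 2 (-0.19, adjusted p = 0.0661) or OCI-AML2 vehicle library 2 (-0.16, adjusted p = 0.0849). TXN differed by -0.29 ± 0.058 (adjusted p = 4.4e-05). NFE2L2 (-0.01 ± 0.094), TXNRD1 (0.08 ± 0.059), PRDX1 (-0.08 ± 0.054) and SRXN1 (-0.59 ± 0.55) did not pass. TXNRD1 passed without OCI-AML2 vehicle library 2 (0.18, adjusted p = 0.00933) or library 3 (0.18, adjusted p = 0.0166). Under upper quartile scaling 49.2% of the called interactions of all genes lay above 0, and 44.4% with the size factors of DESeq2, in place of 36.8%. Without MOLM-13 vehicle library 2 or any of the 3 OCI-AML2 vehicle libraries, 55.8% to 56.8% lay above 0. The side on which most of these calls fall thus changed with the libraries kept, and the split also moved with the scaling. The cause was not tested.

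In the vehicle libraries, 7 of the 9 members differed between MOLM-13 and OCI-AML2 in the same joint fit, where 71.2% of all genes did (35.0% higher in MOLM-13 and 36.2% lower). The regulators were higher in MOLM-13, KEAP1 by 0.91 ± 0.050 (178 ± 4.13 against 94.6 ± 4.82 CPM) and NFE2L2 by 0.54 ± 0.065 (73.1 ± 3.96 against 50.4 ± 0.664 CPM), as were TXNRD1 by 0.29 ± 0.041 and PRDX1 by 0.25 ± 0.038. Both glutamate-cysteine ligase subunits were lower in MOLM-13, GCLM by -0.62 ± 0.085 (30.5 ± 2.78 against 47.1 ± 1.59 CPM) and GCLC by -0.43 ± 0.070, as was TXN by -0.19 ± 0.041. Over these 7, the edgeR adjusted p ran from 4.4e-30 to 2.5e-05 (n = 3 libraries per group). NQO1 (-0.08 ± 0.087, adjusted p = 0.419) and SRXN1 (-0.25 ± 0.35, adjusted p = 0.541) were not called. The vehicle libraries of this comparison also enter the interaction, so the values of both are given and not related to each other.

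**Figure D3:**
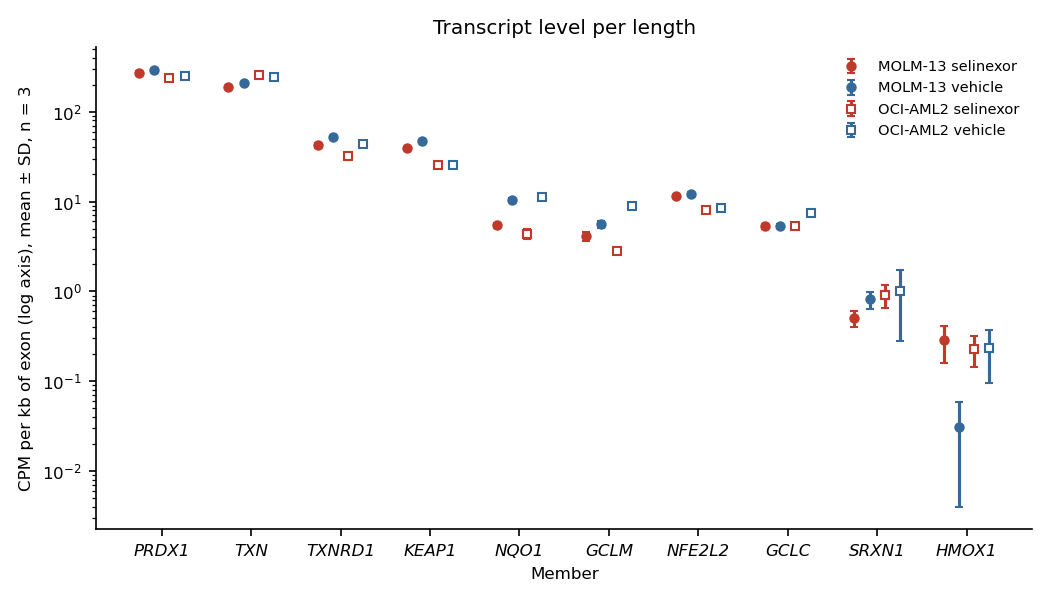
CPM per kb of annotated exon (log axis, mean ± SD of 3 libraries) for the 10 members, MOLM-13 as circles and OCI-AML2 as squares, selinexor in red and vehicle in blue. PRDX1 and TXN lie at 187 to 293 CPM per kb in all 4 groups and HMOX1 at 0.285 or less.

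Per kb of exon, the level of PRDX1 in MOLM-13 was 271 ± 8.62 CPM with selinexor and 293 ± 5.95 CPM with vehicle, followed by TXN, TXNRD1 and KEAP1. In MOLM-13 with vehicle the order went on with NFE2L2 (12.1 ± 0.665), NQO1 (10.4 ± 0.467), GCLM (5.59 ± 0.508), GCLC (5.38 ± 0.265), SRXN1 and HMOX1, and only GCLM and GCLC had overlapping libraries among these neighbours. With selinexor in the same line the neighbours TXNRD1 and KEAP1, NQO1 and GCLC, and SRXN1 and HMOX1 overlapped, and GCLM stood below GCLC. In OCI-AML2 with selinexor TXN (258.5 ± 3.56) stood above PRDX1 (239.7 ± 7.25), GCLC above NQO1, and NQO1 above GCLM (2.80 ± 0.130), with no overlap between neighbours. In OCI-AML2 with vehicle PRDX1 (252 ± 6.56) and TXN (243 ± 4.07) overlapped, as did GCLM (8.85 ± 0.292) and NFE2L2 (8.58 ± 0.107), with NQO1 above and GCLC below that pair. Per kb, GCLM thus stood above GCLC with vehicle in OCI-AML2, overlapped it with vehicle in MOLM-13 and stood below it with selinexor in both lines. The lengths pool the exons of all annotated transcripts of a gene, and the order between genes depends on them. In plain CPM, GCLC stood above GCLM in all 4 groups, at 64.2 ± 2.54 against 48.0 ± 1.58 with vehicle in OCI-AML2.

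The patterns most like those of the regulators were sought among 8343 genes with a mean of at least 10 CPM in both lines, by Pearson's r of log2 CPM over the 12 libraries, centred within each line. NFE2L2 was most like SZRD1 (r = 0.93), SLC25A33 (r = 0.90) and ZFX (r = 0.89). KEAP1 was most like RPL39L (r = 0.96), NUDT1 (r = 0.96) and MZT2B (r = 0.95), with log2 fold changes in MOLM-13 of -1.15 for RPL39L, -0.95 for NUDT1 and -0.62 for MZT2B. These libraries share their treatment groups and depth, and the values only describe likeness.

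Other genes of the pathway were taken from 7 lists chosen by function. Over all tested genes, 31.8% were called higher and 31.8% lower in MOLM-13, and 31.3% higher and 31.8% lower in OCI-AML2. The counts of calls below are to be read beside these shares and only describe the lists. Among 17 tested partners and regulators of NRF2 in MOLM-13, 6 rose and 5 fell (median log2 fold change -0.04), and in OCI-AML2 4 rose and 5 fell (median 0.02). SQSTM1, the autophagy receptor p62 that binds KEAP1 and is itself an NRF2 target, rose by 0.54 ± 0.060 in MOLM-13 and by 0.88 ± 0.051 in OCI-AML2. PGAM5, a mitochondrial phosphatase that binds KEAP1, was at 120 against 209 CPM in MOLM-13 and at 80.9 against 167 CPM in OCI-AML2 with selinexor and vehicle. NFE2, a blood-cell relative of NRF2, rose by 0.70 ± 0.15 and 0.34 ± 0.11 in MOLM-13 and OCI-AML2. CUL3 and RBX1, parts of the ligase that KEAP1 serves, fell in both lines, and RBX1 changed by -0.74 ± 0.066 in MOLM-13.

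Of the glutathione genes other than the members, 26 were tested in both lines. Of these, 5 were called higher in both, 8 lower in both and only SLC7A11 in opposite directions. Among all 11202 genes tested in both lines, the shares were 21.0% higher in both, 23.6% lower in both and 2.86% opposite. Of 27 tested in MOLM-13, 6 rose and 15 fell (median -0.17), and of 29 in OCI-AML2, 13 rose and 8 fell (median 0.07). SLC7A11, which imports cystine for glutathione synthesis, was at 11.7 ± 1.98 against 16.7 ± 2.94 CPM in MOLM-13, a change of -0.51 ± 0.14 in overlapping groups (adjusted p = 7.0e-04). In OCI-AML2 it was at 277 ± 12.9 against 94.2 ± 5.66 CPM (1.56 ± 0.049, adjusted p = 3.5e-28). The difference between the lines was -2.12 ± 0.13 (adjusted p = 1.5e-18). OPLAH, which turns 5-oxoproline back to glutamate, rose by 1.58 ± 0.12 in MOLM-13 and by 1.30 ± 0.10 in OCI-AML2. CHAC2, a glutathione-degrading enzyme, fell in both lines, with log2 fold changes of -0.71 ± 0.15 in MOLM-13 and -1.497 ± 0.20 in OCI-AML2, and its relative CHAC1 fell by 1.56 ± 0.22 in MOLM-13. GSR, which regenerates reduced glutathione, was among those called lower in both lines.

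The thioredoxin list had 10 genes higher and 6 lower of 17 in MOLM-13 (median 0.21), and 11 higher and 3 lower of 19 in OCI-AML2 (median 0.43). TXNIP, an inhibitor of thioredoxin, was at 138 ± 7.19 against 49.9 ± 1.41 CPM in MOLM-13 and at 132 ± 7.40 against 73.8 ± 3.37 CPM in OCI-AML2. SESN3, a sestrin, rose by 1.21 ± 0.15 in MOLM-13 and 1.66 ± 0.060 in OCI-AML2. The mitochondrial peroxiredoxin PRDX3 fell by 0.46 ± 0.035 in MOLM-13, and the endoplasmic reticulum peroxiredoxin PRDX4 by 0.59 ± 0.070. In OCI-AML2 PRDX3 fell by 0.17 ± 0.047 in overlapping groups, and PRDX4 was not called. PRDX2, PRDX5 and PRDX6 were called higher in both lines, PRDX5 by 0.54 ± 0.054 in MOLM-13 and 1.18 ± 0.052 in OCI-AML2.

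Of the haem and iron genes, 4 rose and 1 fell of 7 in MOLM-13 (median 0.49), and 4 rose and 3 fell of 8 in OCI-AML2 (median 0.48). FTH1, the ferritin heavy chain, was at 627 ± 25.7 against 289 ± 18.7 CPM in MOLM-13 and at 395 ± 7.11 against 227 ± 9.60 CPM in OCI-AML2. HMOX2, the second haem oxygenase, fell in both lines, by 0.26 ± 0.070 in MOLM-13. SLC48A1, a haem transporter, changed by 0.49 ± 0.14 in MOLM-13 and by -0.70 ± 0.15 in OCI-AML2. FECH, which inserts iron into protoporphyrin to make haem, fell by 0.34 ± 0.065 in OCI-AML2. BLVRB, a biliverdin reductase, rose by 0.69 ± 0.14 in MOLM-13 and by 2.80 ± 0.23 in OCI-AML2.

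Of 11 NADPH genes, 2 rose and 7 fell in MOLM-13 (median -0.30), and 4 rose and 5 fell in OCI-AML2 (median -0.05). Malic enzyme ME1 fell by 1.61 ± 0.18 in OCI-AML2, where it was at 3.76 ± 0.412 against 11.5 ± 0.690 CPM. In MOLM-13 it was scarce, at 1.30 ± 0.674 against 2.70 ± 0.517 CPM, and changed by -1.08 ± 0.36. MTHFD1, a folate enzyme, fell by 0.80 ± 0.042 in MOLM-13 and by 0.55 ± 0.044 in OCI-AML2.

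The list of quinone, carbonyl and xenobiotic handling had 6 genes higher and 6 lower of 17 in MOLM-13 (median 0.15), and 6 higher and 3 lower of 19 in OCI-AML2 (median 0.14). AKR1B1, aldose reductase, fell by 0.67 ± 0.058 in MOLM-13 and by 0.78 ± 0.059 in OCI-AML2. PIR, pirin, was at 3.99 ± 0.441 against 10.3 ± 0.666 CPM in OCI-AML2 and at 2.09 ± 0.741 against 6.31 ± 1.17 CPM in MOLM-13. The efflux pump ABCC1 rose by 0.95 ± 0.090 in MOLM-13 and by 0.31 ± 0.066 in OCI-AML2.

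Of the superoxide and hydrogen peroxide genes, 5 rose and 2 fell of 10 in MOLM-13 (median 0.27), and 7 rose and 3 fell of 11 in OCI-AML2 (median 0.69). NCF1, a subunit of the phagocyte NADPH oxidase, rose by 1.28 ± 0.11 in MOLM-13 and by 1.85 ± 0.097 in OCI-AML2. SOD2, the mitochondrial superoxide dismutase, was called lower in both lines, by -0.35 ± 0.065 in MOLM-13. MPO, the granule enzyme myeloperoxidase and also a myeloid marker above, changed by 1.13 ± 0.076 in MOLM-13 and by -0.53 ± 0.15 in OCI-AML2. The myeloid markers above moved in the same libraries.

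**Figure D4:**
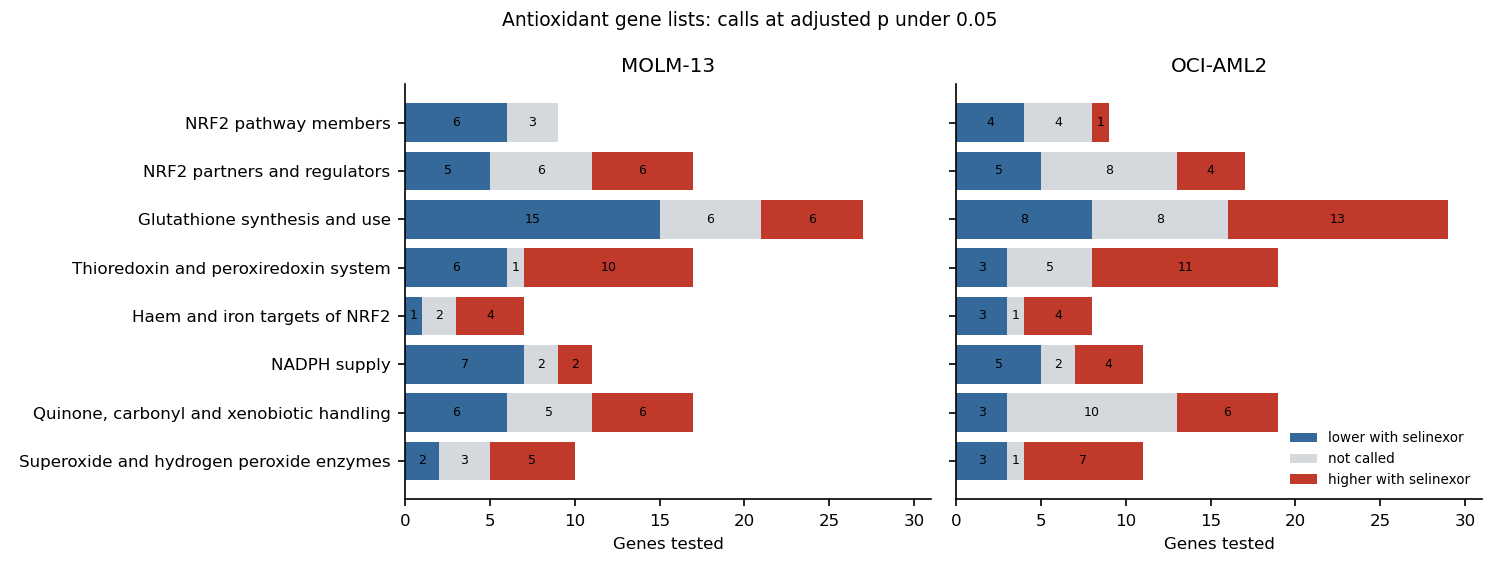
Number of tested genes lower with selinexor (blue), not called (grey) and higher with selinexor (red) at edgeR adjusted p under 0.05 in the members and the 7 other lists, MOLM-13 on the left and OCI-AML2 on the right. The members hold 6 lower genes of 9 in MOLM-13 and 4 in OCI-AML2, and the glutathione list 15 lower of 27 and 8 lower of 29. Over all tested genes, 31.8% were lower in each line.

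**Figure D5:**
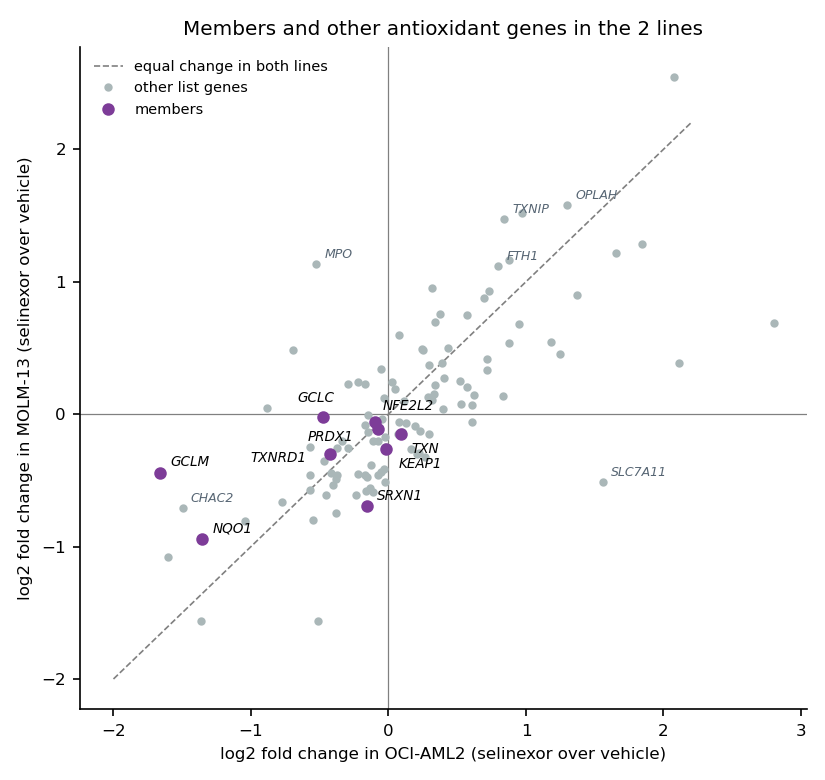
Log2 fold change (selinexor over vehicle) in MOLM-13 on the vertical and OCI-AML2 on the horizontal axis for 9 members (purple) and 105 other list genes (grey), with a dashed line of equal change. GCLM lies at -0.44 in MOLM-13 and -1.66 in OCI-AML2, and SLC7A11 at -0.51 in MOLM-13 and 1.56 in OCI-AML2.

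The authors' deposited table for MOLM-13 gives log2 fold changes as vehicle over selinexor, so a positive value there means lower with selinexor. The authors' deposited table lists 0.95 for NQO1, 0.45 for GCLM, 0.31 for TXNRD1, 0.28 for KEAP1 and -3.19 for HMOX1. Across 11807 genes, which are not independent replicates, its values and the fit used here had a correlation of -0.9999.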

How the data were processed

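Polyadenylated RNA of 12 libraries was sequenced with paired ends. The submitters' processing notes name STAR, R 3.6.1, DESeq2 and the build hg38; how reads were counted, and with which annotation, is not given in the sources used here. Deposited were tables of whole-number counts per gene symbol, 1 table per line. The authors also deposited log2 fold changes for MOLM-13, used only for description. Columns carry the treatment letter but no replicate number, so library numbers only name a column. 

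From the counts, edgeR 4.0.16, run under R 4.3.3, gave log2 fold changes with SEs and p-values (TMM, filterByExpr with minimum count 10 and minimum total 15, robust quasi-likelihood F test, Benjamini-Hochberg over all genes tested). Each line was fitted alone; differences between lines came from a joint fit of the genes in both tables. The deepest library had 11769061 counts. The procedure was tested on simulated counts. Results were recomputed with upper quartile scaling (chosen after seeing the data), the size factors of DESeq2, no filter, DESeq2 1.42.0, limma voom 3.58.1, a joint fit, and leaving out each library.

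The members and gene lists were chosen with earlier results of these data known. Named were all members, XPO1 and up to 2 called list genes per line and direction with the largest change and at least 5 CPM. Named too were up to 2 markers per list and the 3 genes most like NFE2L2 and KEAP1. The others named (CUL3, GSR, CD33, PTPRC, CSF1R, PRDX2, PRDX5, PRDX6) and the second-line values beside them were chosen after their values were seen. Lengths and positions came from GENCODE 29. A few genes that the rule names are not reported here.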

Additional observations from a re-analysis of the deposited data

Results flagged for a closer look

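The change with selinexor differed between MOLM-13 and OCI-AML2 for 5 members by edgeR's test of the interaction. As MOLM-13 minus OCI-AML2 on the log2 scale, the differences were -0.30 for KEAP1 (adjusted p = 7.3e-04), 0.37 for NQO1 (adjusted p = 0.0427), 0.41 for GCLC (adjusted p = 0.00101), 1.17 for GCLM (adjusted p = 3.7e-11) and -0.29 for TXN (adjusted p = 4.4e-05). The NQO1 call was lost in 6 and the KEAP1 call in 2 of 17 alternatives, and 4 to 6 members were called across them. The lines had different doses, so line and dose cannot be told apart.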

How the results depend on the processing

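No paired analysis was possible because the columns carry no replicate numbers. The counts of called genes in the 4 comparisons, over all genes and over the members, stayed within 1.5 times under every alternative run, with 4 to 7 members called in MOLM-13 and 4 to 5 in OCI-AML2. Of 522 alternative values of single members, 473 kept direction and side of the threshold, 19 lost the call, 3 gained it and 27 changed sign, and each of those 27 belonged to a value that was not called. The NFE2L2 interaction was 0.027 with DESeq2's size factors and with DESeq2, and 0.050 with upper quartile scaling. Upper quartile scaling also turned NFE2L2 (0.011) and GCLC (0.051) in MOLM-13 and KEAP1 (0.035) in OCI-AML2. With limma voom SRXN1 was 0.065 in OCI-AML2 and 0.0046 in the vehicle comparison, and with the joint fit KEAP1 in OCI-AML2 was 0.023. Leaving out each library gave -0.056 to 0.025 for GCLC in MOLM-13, -0.065 to 0.012 for KEAP1 and -0.56 to 0.62 for SRXN1 in OCI-AML2, -0.040 to 0.092 for the NFE2L2 and -0.11 to 0.023 for the PRDX1 interaction, and -0.68 to 0.49 for SRXN1 in the vehicle comparison. The cause of these changes was not tested. Counts of HMOX1 and SRXN1 were too low to show changes of moderate size.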
